A study of Mus musculus with 30 samples.

Results

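Transcripts of 6 genes of steroid hormone metabolism and glucocorticoid response were followed in mouse kidney. They are Hsd11b1 and Hsd11b2, the enzymes that regenerate and inactivate glucocorticoid, Hsd3b1, an enzyme of steroid synthesis, Fdx1, the ferredoxin that serves mitochondrial steroid hydroxylases, Nr5a1, a transcription factor of the adrenal cortex, and Sgk1, a kinase induced by corticosteroids. All probe sets that the array annotation gives to these genes were taken, which made 7 probe sets of 13179 and 6 of 6137 named genes. The genes were selected on measured values of these arrays, among them the age changes of Hsd11b1 and Fdx1 and the diet values of Sgk1 and Nr5a1, so the levels and differences of the 6 genes between groups are a description and are not used as evidence.

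All mice were C57BL/6, an inbred strain, and total RNA of the kidney was measured in 3 groups: 5 calorie-restricted mice aged 30 months, 5 control-fed mice of that age (old controls), and 5 control-fed mice aged 5 months (young controls). Calorie restriction is a lowered food intake, whose degree and duration the labels do not give. Each animal was measured on 2 one-colour array types, A and B, which gave 30 samples. The labels name the comparison of old with young controls for ageing and of calorie-restricted with old controls for the diet, but do not state that the numbers 1 to 5 in the titles are different mice. Each number is treated as 1 animal, and p-values measure the spread between these samples, which may be technical.

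Cortisol and corticosterone act through the glucocorticoid and mineralocorticoid receptors, and cells set their own exposure with a pair of enzymes. Hsd11b1 turns inactive 11-keto steroid back into active glucocorticoid, and in the distal nephron Hsd11b2 does the reverse, which leaves the mineralocorticoid receptor to aldosterone. Sgk1 is an early target of both receptors and raises sodium uptake through the epithelial sodium channel. The adrenal cortex makes these hormones, and its gland lies against the kidney.

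The promoter of Sgk1 is shown because the gene is a known target of both receptors. Whether its level followed receptor activity in these kidneys was not tested. The windows of Hsd11b1 and Fdx1, the pair of genes with lower levels in old kidneys, are set beside it. Each window runs from 250 bases before to 50 after a gene start, from the RefSeq annotation of build GRCm38.p6, and capitals mark the palindromic glucocorticoid response element, letters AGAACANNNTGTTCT, which reads the same on both strands. RefSeq windows were found for 4 of the 6 genes, 9 windows in all, 6 of them for Sgk1. Printed for Sgk1 is the only one of its windows that holds the palindrome.
Sgk1, chr10:21993640-21993939, plus strand: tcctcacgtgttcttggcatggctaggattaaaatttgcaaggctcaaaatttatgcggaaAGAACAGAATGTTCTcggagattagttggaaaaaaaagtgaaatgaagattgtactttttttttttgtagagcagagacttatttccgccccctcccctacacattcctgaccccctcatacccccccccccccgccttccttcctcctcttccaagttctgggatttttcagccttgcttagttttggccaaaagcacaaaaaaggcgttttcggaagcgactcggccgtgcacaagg
Hsd11b1, chr1:193242311-193242610, minus strand: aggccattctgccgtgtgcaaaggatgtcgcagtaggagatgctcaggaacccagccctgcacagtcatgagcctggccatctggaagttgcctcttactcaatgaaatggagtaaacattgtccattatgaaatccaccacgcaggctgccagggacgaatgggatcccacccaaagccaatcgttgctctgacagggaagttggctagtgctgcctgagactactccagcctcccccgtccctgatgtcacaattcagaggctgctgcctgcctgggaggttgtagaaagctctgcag
Fdx1, chr9:51963553-51963852, minus strand: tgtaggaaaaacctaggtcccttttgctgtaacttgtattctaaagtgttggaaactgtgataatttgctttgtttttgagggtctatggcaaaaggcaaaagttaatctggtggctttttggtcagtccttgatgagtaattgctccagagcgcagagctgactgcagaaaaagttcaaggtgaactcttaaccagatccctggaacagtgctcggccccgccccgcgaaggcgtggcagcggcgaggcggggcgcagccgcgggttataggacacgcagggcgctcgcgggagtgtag
The palindrome began 189 bases before the gene start in this Sgk1 window, as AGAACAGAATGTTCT, and was in 3 of 32851 windows of all genes (0.00913%). None of the 27 other glucocorticoid-induced genes with a RefSeq window, of a list of 34, held these letters. The single site AGAACA, read on both strands and contained in the palindrome, was in 3 of the 6 Sgk1 windows and in 19% of all windows. The letters CAAGGTCA, to which Nr5a1 is known to bind, were in 2 Sgk1 windows on either strand and in 1.56% of all. The windows of Hsd11b1, Hsd3b1 and Fdx1 held none of the 3 motifs. A match describes the letters and not a bound site.

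A background floor was set from the spread of the negative values (their root mean square), at an intensity of 1103 on array A and 1815 on array B, and 23.9% to 37.5% of an array's values lay above it. Of all probe sets 4518 were above the floor on at least 5 arrays and were tested, among them 6 of the 7 studied here. Changes are log2 differences of floored values with their standard error from limma, and a call means an adjusted p (Benjamini-Hochberg) under 0.05 over all tested probe sets of both arrays. Libraries with title numbers 1 to 3 stood apart from those with numbers 4 and 5 in every group: the first principal component, with 37.0% of the variance, separated them in all 15 animals. These are called set 1 to 3 and set 4 to 5; what they are is not recorded in the labels, and the values of called genes, other than leukocyte markers, are therefore also given within them. On array B the young columns of 85 tested probe sets, those of targets with several probe sets, correlated with the old columns at r = -0.20 across probe sets, while the 957 tested probe sets of single targets with the suffix s, to which Hsd11b1 and Hsd11b2 belong, correlated at r = 0.96.

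Kidneys of both old groups held less Hsd11b1 transcript than young kidneys. The probe set X83202_s_at on array B read 10739, 11432, 6858, 7724 and 10290 in calorie-restricted animals, 14934, 8103, 11240, 10571 and 5022 in old controls, and 14671, 28643, 21167, 17390 and 18975 in young controls. All 5 calorie-restricted values lay below every young value, and among old controls animal 1 alone overlapped the young range, through young control 1. Group means were 9409 ± 1999 in calorie-restricted animals, 9974 ± 3694 in old controls and 20169 ± 5296 in young controls (SD, n = 5 each). The log2 difference was -1.07 ± 0.26 (SE) for old against young controls and -1.09 ± 0.26 for calorie-restricted animals against young controls, and both were called. For calorie-restricted against old controls it was -0.02 ± 0.26, with a 95% interval of -0.57 to 0.52, so a change of up to about that size under the diet is not excluded by these arrays. Within sets 1 to 3 and 4 to 5 the age difference was -0.90 and -1.32, and the diet difference was -0.23 and 0.29. The call with age did not hold without old control 2 (-1.02), young control 2 (-0.93) or young control 3 (-1.04). That of calorie-restricted against young animals did not hold without calorie-restricted animal 3 (-0.98) or young control 2 (-0.96), or in set 1 to 3 (-1.13) or set 4 to 5 (-1.03). In bulk tissue, fewer cells of a type and less RNA per cell cannot be told apart.

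**Figure D1:**
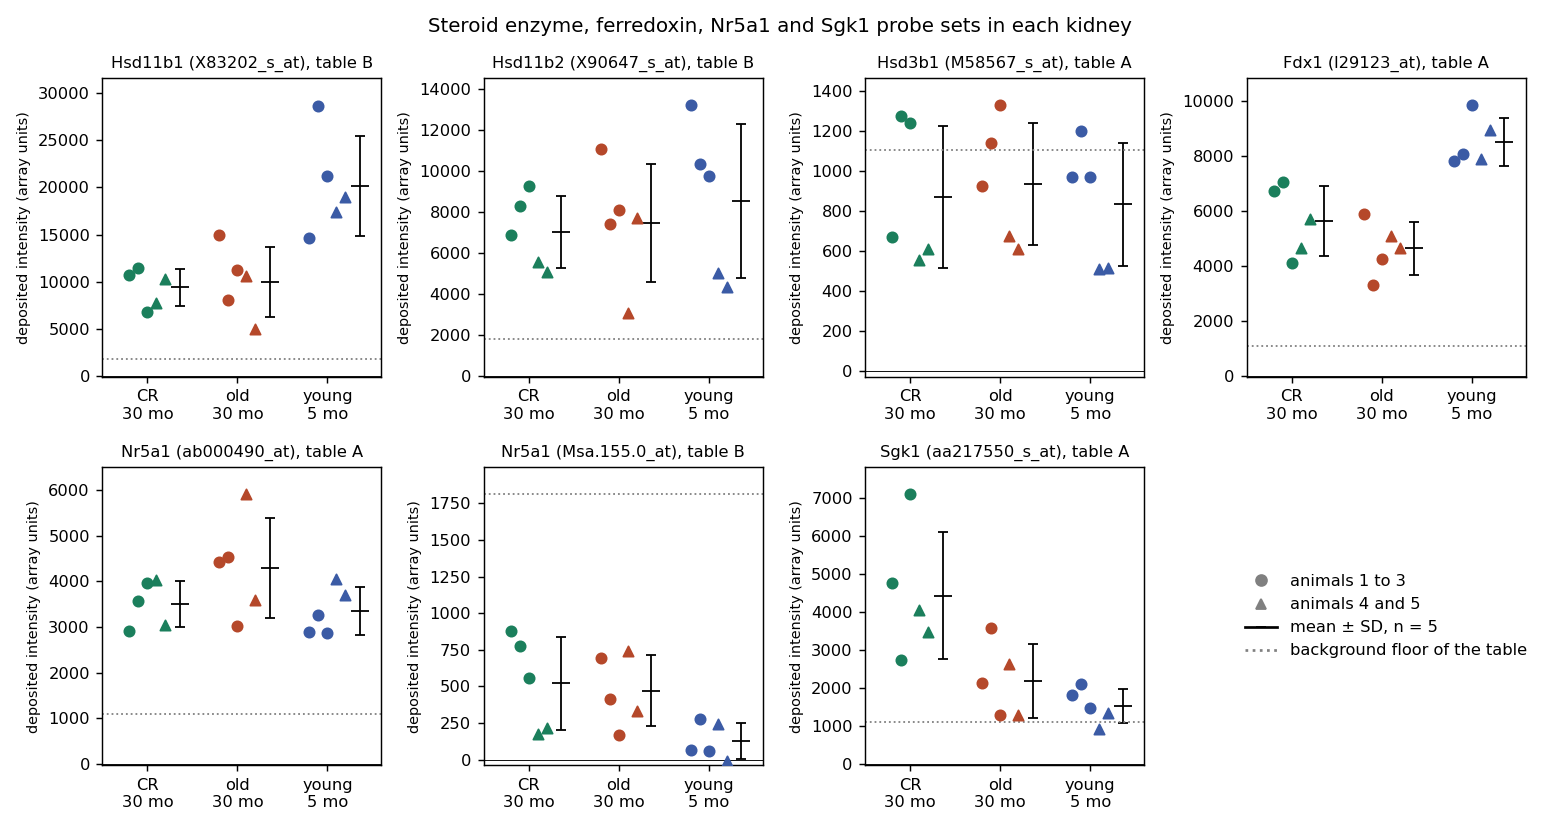
Deposited intensity of the 7 probe sets in each kidney (vertical axes, array units) for calorie-restricted (CR) mice and old controls of 30 months and young controls of 5 months. Circles are animals 1 to 3, triangles animals 4 and 5, bars the mean ± SD (n = 5), and the dotted line the background floor of the array type, whose tables are named A and B. Hsd11b1 and Fdx1 are highest in young kidneys, Sgk1 in calorie-restricted ones, and the array B probe set of Nr5a1 stays below the floor in all 15 animals.

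Hsd11b2, the inactivating enzyme of the distal nephron, differed little between the groups. Its probe set X90647_s_at on array B read 6885, 8293, 9270, 5582 and 5082 in calorie-restricted animals, 11085, 7422, 8082, 3057 and 7706 in old controls, and 13193, 10321, 9740, 5047 and 4329 in young controls, so all 3 groups overlapped. The differences were -0.18 ± 0.34 for old against young controls and -0.01 ± 0.34 for the diet, with intervals of -0.91 to 0.55 and -0.74 to 0.72, and neither was called. The larger split ran between the number sets. Animals 4 and 5 read lower than animals 1 to 3 by 0.60 on the log2 scale in calorie-restricted animals, by 0.85 in old controls and by 1.23 in young controls. Their mean, -0.89, was lower than that of all but 1.62% of the tested probe sets of array B, whose median was 0.01.

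Both enzymes sit on the same array, so their log2 difference in an animal can be followed across groups, although its level depends on the brightness of the 2 probe sets. Hsd11b1 minus Hsd11b2 averaged 0.43 ± 0.53 in calorie-restricted animals, 0.44 ± 0.87 in old controls and 1.33 ± 0.76 in young controls (SD, n = 5 each). The groups overlapped: the range was -0.43 to 1.02 in calorie-restricted animals, -0.62 to 1.79 in old controls and 0.15 to 2.13 in young controls.

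Hsd3b1, which in the mouse acts mainly in adrenal and gonad and turns pregnenolone into progesterone, was near the floor. Its probe set M58567_s_at read 554 to 1274 in calorie-restricted animals, 607 to 1328 in old controls and 509 to 1197 in young controls, and was above the floor on 5 of 15 arrays, which just admitted it to the test. The differences were 0.04 ± 0.10 with age and 0.01 ± 0.10 with the diet, on a scale on which most values sat at the floor. Probe sets of its family behaved differently from it and from each other. Those shared by Hsd3b4, a ketosteroid reductase of mouse kidney, and predicted genes of its family were bright, with 20312 to 39128 in calorie-restricted animals, 21739 to 31816 in old controls and 20007 to 29421 in young controls on array A, and were not called (0.10 with age and 0.04 with the diet). Hsd3b5 was below the floor on all 15 arrays. The genes of this family are close in sequence, and which of them a probe set reads is uncertain.

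Fdx1, which passes electrons to mitochondrial cytochromes P450 such as the vitamin D 1-alpha-hydroxylase Cyp27b1 of the proximal tubule, was lower in old kidneys. Its probe set l29123_at on array A read 6732, 7067, 4124, 4656 and 5697 in calorie-restricted animals, 5882, 3301, 4272, 5103 and 4648 in old controls, and 7814, 8063, 9844, 7891 and 8962 in young controls. Every value of both old groups lay below every young value. Means were 5655 ± 1275 in calorie-restricted animals, 4641 ± 960 in old controls and 8515 ± 873 in young controls (SD, n = 5 each). The log2 difference was -0.89 ± 0.18 for old against young controls, which was called, with -0.97 in set 1 to 3 and -0.78 in set 4 to 5. It was -0.61 ± 0.18 for calorie-restricted animals against young controls, which was not called. It was called without calorie-restricted animal 1 (-0.68) or 2 (-0.70), without old control 1 or 2, with the number set as a term, with a higher floor and with only the groups compared in the fit (-0.61 in these 5 cases). For the diet it was 0.28 ± 0.18, with an interval of -0.10 to 0.65 and overlapping groups.

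Nr5a1 was read by 2 probe sets that disagreed. On array A, ab000490_at read 2918, 3560, 3963, 4035 and 3040 in calorie-restricted animals, 4414, 4522, 3016, 5908 and 3590 in old controls, and 2888, 3262, 2865, 4057 and 3699 in young controls, above the floor in every animal. The groups overlapped, and neither the age difference of 0.33 ± 0.18 nor the diet difference of -0.27 ± 0.18 was called. On array B, its other probe set read -9 to 878 and was above the floor on 0 of 15 arrays. Of 7 adrenal cortex genes on the arrays, 4 were never above the floor. They were Inha, an inhibin subunit, and the following: Star, which carries cholesterol into the mitochondrion, at -195 to 328, Mrap, the accessory protein of the corticotropin receptor, at -264 to 1048, and Nr0b1, a partner of Nr5a1, at -721 to -101. The side-chain cleavage enzyme Cyp11a1, the first enzyme of steroid synthesis, was above the floor on 2 arrays, with a highest value of 1521. The corticotropin receptor Mc2r was above the floor on 13 of 15 arrays and was tested (0.24 ± 0.16 with the diet, adjusted p = 0.535). Scarb1 was above the floor on 2 arrays, with a highest value of 1940. The summed intensity of the adrenal cortex markers was 2953 to 4179 in calorie-restricted animals, 1802 to 6188 in old controls and 2240 to 4866 in young controls. Mc2r alone read 1911 to 3280, 862 to 2507 and 1548 to 2734 in these groups. The other genes in the sum lay below the floor on most arrays, so the sum is no measure of adrenal cortex as a whole. Of 6 adrenal medulla genes, Chga, Chgb, Pnmt and Scg2 were never above the floor, while Th was above it on all 15 arrays and did not pass (0.33 with age, -0.01 with the diet), nor did Phox2a, above it on 9 arrays (0.15 and 0.03).

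Sgk1 was highest in calorie-restricted kidneys. Its probe set aa217550_s_at on array A read 4780, 2753, 7111, 4049 and 3472 in calorie-restricted animals, 2141, 3580, 1288, 2647 and 1297 in old controls, and 1836, 2100, 1488, 919 and 1338 in young controls. All calorie-restricted values lay above every young value, and calorie-restricted animals were higher than old controls in 23 of 25 pairs of animals, the exceptions involving old control 2. Means were 4433 ± 1672 in calorie-restricted animals, 2191 ± 969 in old controls and 1536 ± 456 in young controls (SD, n = 5 each). The log2 difference was 1.46 ± 0.30 (2.75-fold) against young controls, which was called, and 1.05 ± 0.30 (2.07-fold) against old controls, which was not. Against old controls it stood 23rd from the highest of 4518 probe sets, and it was called without old control 2 (1.26). Old controls against young controls gave 0.40 ± 0.30, with an interval of -0.23 to 1.04. Within sets 1 to 3 and 4 to 5 the diet difference was 1.08 and 1.01. The contrast of calorie-restricted with young animals is the sum of the other contrasts and no separate test.

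**Figure D2:**
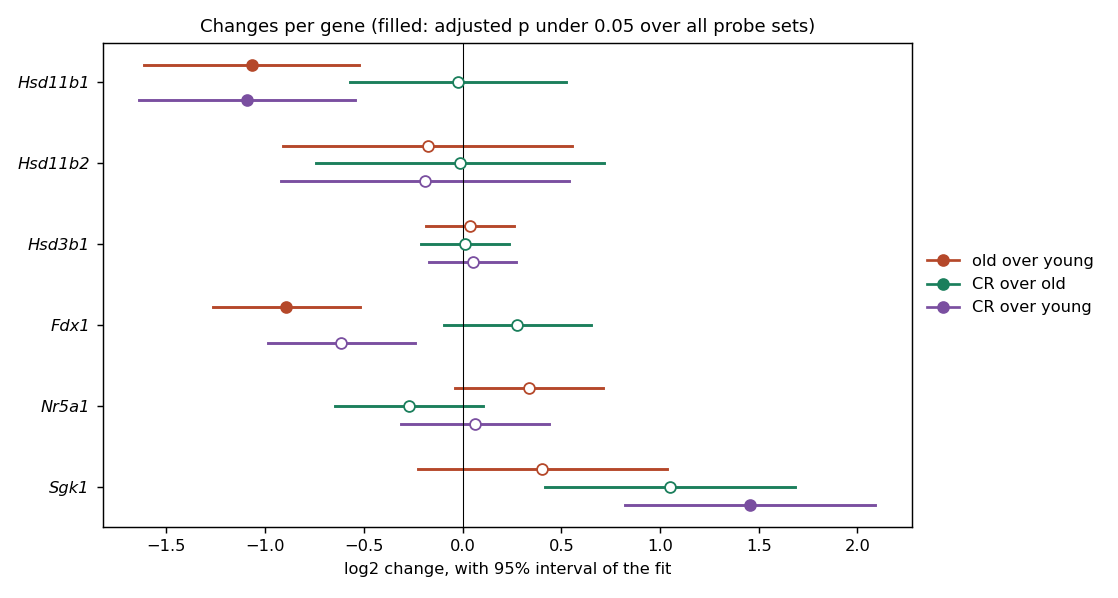
Log2 change (horizontal axis) of the 6 tested probe sets with the 95% interval of the fit, for old over young controls, calorie-restricted (CR) over old controls, and calorie-restricted over young controls. Filled points have an adjusted p under 0.05 over all 4518 probe sets. Hsd11b1 and Fdx1 lie below 0 with age, at -1.07 and -0.89, and Sgk1 lies at 1.05 under the diet.

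Of the 6 tested probe sets, 2 were called with age (Hsd11b1 and Fdx1), against 5.16% of all probe sets tested, 0 with the diet, against 2.61%, where 1, Sgk1, had an unadjusted p under 0.05, against 14.6%, and 2 in calorie-restricted against young animals (Hsd11b1 and Sgk1), against 5.71%. Groups that did not overlap were found for Fdx1 with age, against 6.46% of all, for none with the diet, against 4.16%, and for Hsd11b1, Fdx1 and Sgk1 in calorie-restricted against young animals, against 7.24%. The shares include the 85 probe sets of array B whose young columns went against the old. Without them 150 probe sets were called with age in place of 233, and 169 in calorie-restricted against young animals in place of 258. Since these contrasts were known when the genes were chosen, nothing is read from the counts of the 6 genes.

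Over the deviations of the 15 animals from their group means, with the 15 pairs of genes adjusted together, Hsd11b1 and Fdx1 gave Pearson r = 0.53 (permutation p = 0.0710, adjusted p = 0.533) and Spearman rho = 0.67 (permutation p = 0.0171, adjusted p = 0.256), two-sided. Without the 2 animals farthest from the median of Hsd11b1 r was 0.63, and with the mean of the number set also removed it was 0.70. The largest Pearson r in size was that of Hsd11b2 with Nr5a1, -0.55 (adjusted permutation p = 0.533), which was -0.31 with the mean of the number set removed. Nr5a1 stands here for its array A probe set alone, with which the array B probe set disagreed. For Sgk1 r was 0.36 with Nr5a1 (adjusted permutation p = 0.832), -0.45 with Fdx1 (0.789), 0.15 with Hsd11b2 (0.906) and 0.02 with Hsd11b1 (0.954). With the mean of the number set removed these were 0.69, -0.53, -0.35 and -0.10. Within the number sets, Sgk1 with Hsd11b1 gave -0.47 over the 9 animals of set 1 to 3 and 0.83 over the 6 of set 4 to 5, and Sgk1 with Hsd11b2 gave 0.03 and -0.95. In set 4 to 5 a group has 2 animals, whose deviations from their mean mirror each other. The r of that set therefore rests on 1 free value per group, and the difference between the sets was not tested. None of the 15 pairs passed after adjustment, in permutation tests of r or of rho.

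Among other genes of steroid synthesis and conversion, limma called 3 of 6 tested lower with age and none higher, where 3.55% of all named genes were called in either direction. Nothing is read from that count, since Hsd3b2 entered the test through the young arrays alone and Cyp7b1 through 4 young and 2 old control arrays. With a higher floor, or with at least 10 arrays above the floor, neither of the 2 was tested and 1 gene, Hsd17b11, was called, and in set 4 to 5 alone 0 were. Hsd17b11, a dehydrogenase of steroids and lipids, read 5415 to 9291 in calorie-restricted animals, 5538 to 7366 in old controls and 9776 to 18671 in young controls. No value of either old group reached the young range, and it fell with age by 1.01 on the log2 scale (SE 0.18, limma adjusted p = 0.00202), with -0.89 in set 1 to 3 and -1.19 in set 4 to 5. Cyp7b1, which hydroxylates oxysterols and dehydroepiandrosterone, read 87 to 430 in calorie-restricted animals, all below the floor, 547 to 1392 in old controls and 1065 to 3530 in young controls. Its fitted change with age was -0.97 ± 0.23. No p is given, since without the young arrays it would not have passed the filter. Its call did not hold without young control 2 (-0.86) or young control 3 (-0.94). The change of Cyp7b1 was -1.31 in set 1 to 3 and -0.47 in set 4 to 5. Hsd3b2 was below the floor in all calorie-restricted (361 to 766) and old control animals (429 to 1075) and above it in all young controls (1336 to 2019), which made it at least 1.56-fold lower in old than in young controls. The fitted log2 differences were -0.72 in set 1 to 3 and -0.54 in set 4 to 5, and no p is given, since the 5 young arrays alone brought the probe set past the filter. The peroxisomal Hsd17b4 (-0.09), the mitochondrial Hsd17b10 (0.02) and the retinol and steroid dehydrogenase Rdh5 did not pass with age. With the diet limma called 0 of 6, against 1.87% of all named genes, and the highest value was that of Hsd17b4 (0.51 ± 0.15, adjusted p = 0.0962). It was also the 1 gene of the 6 with an unadjusted p under 0.05, which 14.1% of all named genes had with age and 14.4% with the diet, and it was called with the number set as a term (adjusted p = 0.0483). The probe sets of the other genes of the list on the arrays, among them Cyp17a1, Hsd17b1 and Hsd17b2, were above the floor on 0 to 4 arrays.

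The receptors were hardly measured. Nr3c1, the glucocorticoid receptor, read -70 to 222 in calorie-restricted animals, -11 to 371 in old controls and 26 to 491 in young controls, below the floor on all 15 arrays. Of 9 tested receptor and chaperone genes limma called 0 with age and 0 with the diet. At an unadjusted p under 0.05 these counts were 0 and 2, against 14.1% and 14.4% of all named genes. Fkbp5, a co-chaperone that holds the glucocorticoid receptor in check and is itself induced by it, read 3445, 2691, 4775, 3200 and 3034 in calorie-restricted animals and 3924, 5864, 6609, 4581 and 4864 in old controls, a change of -0.60 ± 0.18 (limma adjusted p = 0.101) that was -0.59 in set 1 to 3 and -0.61 in set 4 to 5. It was called with the number set as a term (-0.60, limma adjusted p = 0.0466) and without calorie-restricted animal 3 (-0.72), whose value was the 1 above the lowest old control. The heat shock proteins Hsp90aa1 and Hspa8, abundant chaperones of the receptor complex, changed by -0.11 and -0.09 with the diet and did not pass.

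No glucocorticoid-induced gene was called with the diet. Of 17 tested besides Sgk1, limma called 1 with age, which rose, and 0 with the diet, where the median of the 17 was 0.10, against 0.01 over all named genes. At an unadjusted p under 0.05 the diet counts were 3 higher and 4 lower, against 14.4% of all named genes in either direction. With the diet, Angptl4, a secreted inhibitor of lipoprotein lipase that fasting also induces, changed by 0.87 ± 0.26 (adjusted p = 0.0948) and G6pc, the glucose-releasing phosphatase, by 0.63 ± 0.20 (adjusted p = 0.135). The metallothioneins Mt1 and Mt2, which bind zinc, changed by -0.76 ± 0.33 and -0.43 ± 0.18, Per1, a clock gene, by 0.11 ± 0.40, Zfp36, which destabilises mRNA, by 0.14 ± 0.25, and Dusp1, a phosphatase of MAP kinases, by 0.35 ± 0.29. None of these passed in limma over all probe sets, and their values lay on both sides of 0. Mt1 was above the floor in 1 calorie-restricted, 4 old control and 3 young animals, and Per1 in 4, 3 and 2. The changes of Mt1 and Per1 therefore rest in part on values set to the floor. Tgm2, a transglutaminase, read 3156 to 4123 in calorie-restricted animals, 2951 to 4751 in old controls and 1403 to 3379 in young controls, and rose with age by 0.83 ± 0.21 (limma adjusted p = 0.0237), a call that did not hold without old control 5 (0.73), young control 2 (0.69) or young control 3 (0.74). The rise was 0.96 in set 1 to 3 and 0.64 in set 4 to 5. It was also lost with quantile normalization (0.78), without a filter on low values and with only the groups compared in the fit (0.83 in both cases). Lcn2, a secreted iron carrier, read 1161 to 2213 in calorie-restricted animals, 2099 to 4541 in old controls and 494 to 1229 in young controls, whose values all lay below the floor and below every old control. Its fitted log2 difference with age was 0.59 ± 0.18. It was 1.43 with a lower floor, 1.09 with asinh in place of log2 and 0.69 without old control 1. No p is given for Lcn2, since without the old control arrays it would not have passed the filter of the main fit. With the diet, Angptl4 was called with a higher floor (0.87, limma adjusted p = 0.0337), and G6pc without old control 4 (0.77) and in set 1 to 3 (0.99). In that set G6pc was also called with age (-0.93).

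**Figure D3:**
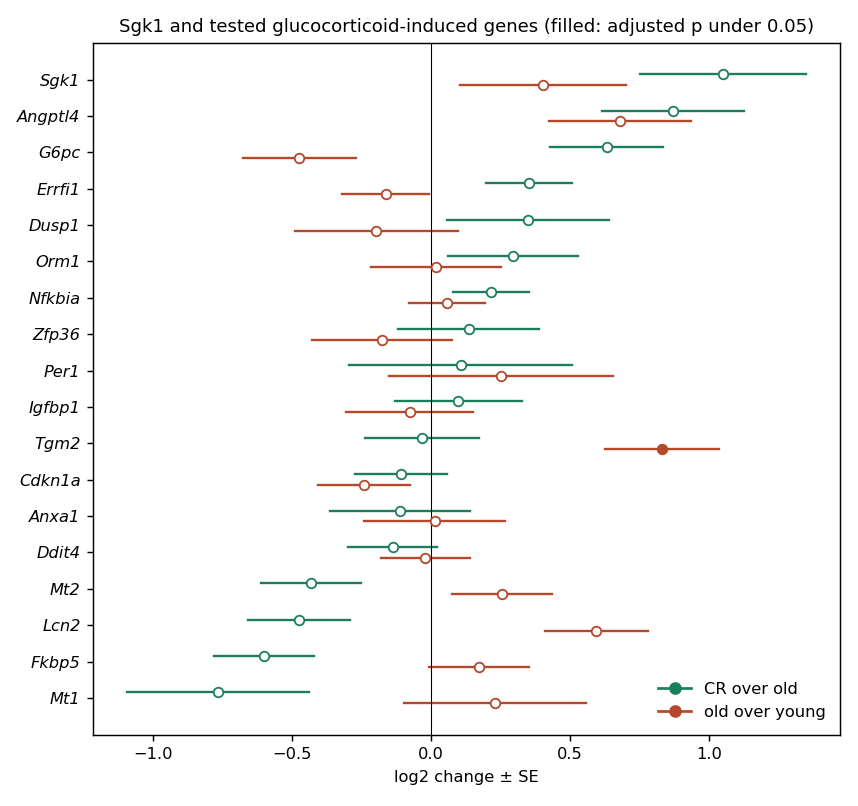
Log2 change ± SE (horizontal axis) of Sgk1 and the 17 tested glucocorticoid-induced genes, ordered by the change under the diet, for calorie-restricted (CR) over old controls and old over young controls. Filled points have an adjusted p under 0.05. Tgm2 with age is the only filled point, and the diet changes run from -0.76 for Mt1 to 1.05 for Sgk1. Mt1 was above the floor in 1 calorie-restricted and 4 old control animals.

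A list of genes of sodium transport and of the Sgk1 network had 5 tested members, and limma called 0 with age and 0 with the diet. At an unadjusted p under 0.05 the counts were 1 and 2, against 14.1% and 14.4% of all named genes. Ndrg1, a direct substrate of Sgk1, read 31259, 30886, 39040, 45821 and 45261 in calorie-restricted animals, 16270, 29059, 19219, 25508 and 28479 in old controls, and 21789, 15406, 19468, 16050 and 9231 in young controls. Every calorie-restricted value lay above every value of both control groups, with a change of 0.71 ± 0.23 against old controls (limma adjusted p = 0.137), 0.68 in set 1 to 3 and 0.75 in set 4 to 5, and of 1.27 ± 0.23 against young controls (limma adjusted p = 0.00220), 0.84 in set 1 to 3 and 1.91 in set 4 to 5. Slc12a3, the thiazide-sensitive sodium chloride cotransporter (0.24 ± 0.22), Wnk1, a kinase that controls it (0.41 ± 0.15), the sodium pump subunit Atp1b1 (0.15 ± 0.14) and Nedd4 (0.17 ± 0.20), a ubiquitin ligase related to the Nedd4l on which Sgk1 is known to act, did not pass with the diet.

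A list of mitochondrial P450s, vitamin D genes and iron-sulfur genes, drawn up around Fdx1, had 5 tested members. The vitamin D hydroxylases Cyp27b1, which activates the hormone, and Cyp24a1, which degrades it, changed by 0.15 ± 0.20 and 0.01 ± 0.24 with age and did not pass. The calcium-binding proteins Calb1 and S100g, which vitamin D induces in the distal tubule, fell with age by 0.67 (SE 0.17, limma adjusted p = 0.0265) and by 0.66 (SE 0.18, limma adjusted p = 0.0496). The call of Calb1 was lost without 6 of the 15 animals, and that of S100g without 11 of them. With each of the 15 animals left out, the change ranged over -0.77 to -0.59 for Calb1 and -0.77 to -0.56 for S100g. Within sets 1 to 3 and 4 to 5 the age changes were -0.91 and -0.32 for Calb1 and -0.66 in both sets for S100g. Neither passed with the diet (0.39 and 0.58), and limma called 0 of the 5 there. At an unadjusted p under 0.05 there were 2, against 14.4% of all named genes. Cubn, an endocytic receptor of the proximal tubule, changed by 0.29 ± 0.21 with age and 0.20 ± 0.21 with the diet and did not pass.

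The summed intensity of the distal markers was 180057 to 219551 in calorie-restricted animals, 148144 to 156981 in old controls and 180840 to 213137 in young controls, so old controls lay below both other groups. In that list 4 of 10 genes fell with age, against 3.55% of all named genes called: Calb1, S100g, Klk1 (-1.01 ± 0.19) and Egf (-0.39 ± 0.11). S100g, Egf and Klk1 were also the brightest of the 10 genes, with means of 50858, 45678 and 44116 in young controls. In old controls these means were 32118, 34899 and 21390, and a sum of intensities follows its brightest genes most. Not called with age were Umod (0.22), Slc12a1 (0.16), Slc4a1 (0.27), Slc12a3 (-0.06), Pvalb (-0.40) and Slc8a1 (-0.28). The sum is therefore no measure of the distal segments as a whole. Egf rose with the diet (0.45 ± 0.11), 1 of 10 against 1.87% of all named genes, although its calls with age and the diet were lost without 12 and 7 of the 15 animals. In sets 1 to 3 and 4 to 5 the age changes were -0.92 and -1.15 for Klk1 and -0.37 and -0.43 for Egf, and the diet change of Egf was 0.40 and 0.51. The diet change of Klk1, 0.70 ± 0.19 (limma adjusted p = 0.0703), was called with the number set as a term (adjusted p = 0.0130). Markers of the proximal tubule, the segment in which Cyp27b1 acts, summed to 470110 to 685117 in calorie-restricted animals, 484055 to 787571 in old controls and 566926 to 830336 in young controls, with overlap. There 1 of 12 genes fell with age, Gatm (-0.87 ± 0.16, with -1.11 in set 1 to 3 and -0.51 in set 4 to 5). Mep1b was called as well with the number set as a term (-0.67, limma adjusted p = 0.00500). With the diet limma called 0, with 1 at an unadjusted p under 0.05, against 14.4% of all named genes. In calorie-restricted against young animals 4 of the 12 were called lower and 0 higher, against 58 lower and 73 higher of 2674 named genes. They were Mep1b (-1.06), Gatm (-1.01), Mep1a (-0.80) and Fbp1 (-0.64). In set 1 to 3 these were -0.86, -1.25, -0.42 and -0.44, and in set 4 to 5 -1.36, -0.65, -1.35 and -0.93. Leukocyte markers summed to 79583 to 113244 in calorie-restricted animals, 213527 to 324189 in old controls and 56710 to 75700 in young controls. Of 13 genes, 10 were called higher in old than in young controls, against 3.55% of all named genes. In calorie-restricted animals 9 of the 13 were called lower than in old controls, against 1.87%. Both counts include Jchain, above the floor in 4 calorie-restricted, 5 old control and 0 young animals. Without the old control arrays Jchain would not have passed the filter, so nothing is read from its calls. With age the immunoglobulin genes Igha (4.54), Ighm (3.66) and Jchain (2.88), the class II antigen presentation genes H2-Ab1 (2.04), Cd74 (1.77) and H2-Aa (1.56), and Lyz2 (1.67), Ctss (1.61), C1qb (0.93) and Laptm5 (0.87) rose. With the diet Ighm (-2.57), Igha (-2.40), Jchain (-2.07), C1qb (-1.28), H2-Aa (-1.27), Ctss (-1.26), H2-Ab1 (-1.22), Cd74 (-1.15) and Cd37 (-0.90) fell. Not called were Cd37 (0.28), Ptprc (0.22) and Cd3e (0.05) with age, and Lyz2 (-0.92), Laptm5 (-0.70), Ptprc (-0.0007) and Cd3e (0.41) with the diet. Ptprc averaged 10427 in calorie-restricted animals, 10416 in old controls and 9020 in young controls. Ighm and Igha had the highest means of the 13 genes in old controls, at 45849 and 40935. The part of these cell types in the values of Hsd11b1, Fdx1 and Sgk1 was not tested. Of 8 immediate early genes limma called 0 with age and 0 with the diet, and Fos and Junb were below the floor on all arrays. At an unadjusted p under 0.05, 4 of the 8 were higher and 0 lower with age, against 14.1% of all named genes in either direction. With the diet 1 was higher and 1 lower, against 14.4%. Of 2 osmotic response genes and of 5 genes of fat, blood and muscle 0 were called, with 0 and 2 at an unadjusted p under 0.05 with age and 0 of either with the diet.

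The genes closest to each member were sought by the correlation of log2 values over the 15 animals, among 2317 tested probe sets with a gene symbol on array A and 723 on array B, first over levels, which hold the group differences, and then over deviations from group means. The values are descriptions, since they are the highest of many. For Sgk1 the highest over levels were Angptl4 (r = 0.86), Cyp4a31, a fatty acid hydroxylase (0.82), and Lmo7 (0.81), and over deviations Man2b2, Zfp36 and Tcea1 (each 0.78). Angptl4 read 7143, 4669, 6634, 7738 and 5859 in calorie-restricted animals, 2734, 4584, 2208, 3924 and 4474 in old controls, and 2625, 3539, 1961, 1366 and 1869 in young controls. Its calorie-restricted values lay above all control values, and with group and number set means removed its r with Sgk1 was 0.71. For Hsd11b1 the highest were the respiratory chain carrier Cycs (0.93), the fatty acid transporter Cd36 (0.89) and Papola (0.88) over levels, and Cycs (0.84), Prkcd (0.84) and Cd36 (0.82) over deviations. Cycs read 6047 to 12674 in calorie-restricted animals, 6768 to 17703 in old controls and 15326 to 27156 in young controls, so old and young controls overlapped and calorie-restricted and young animals did not.

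**Figure D4:**
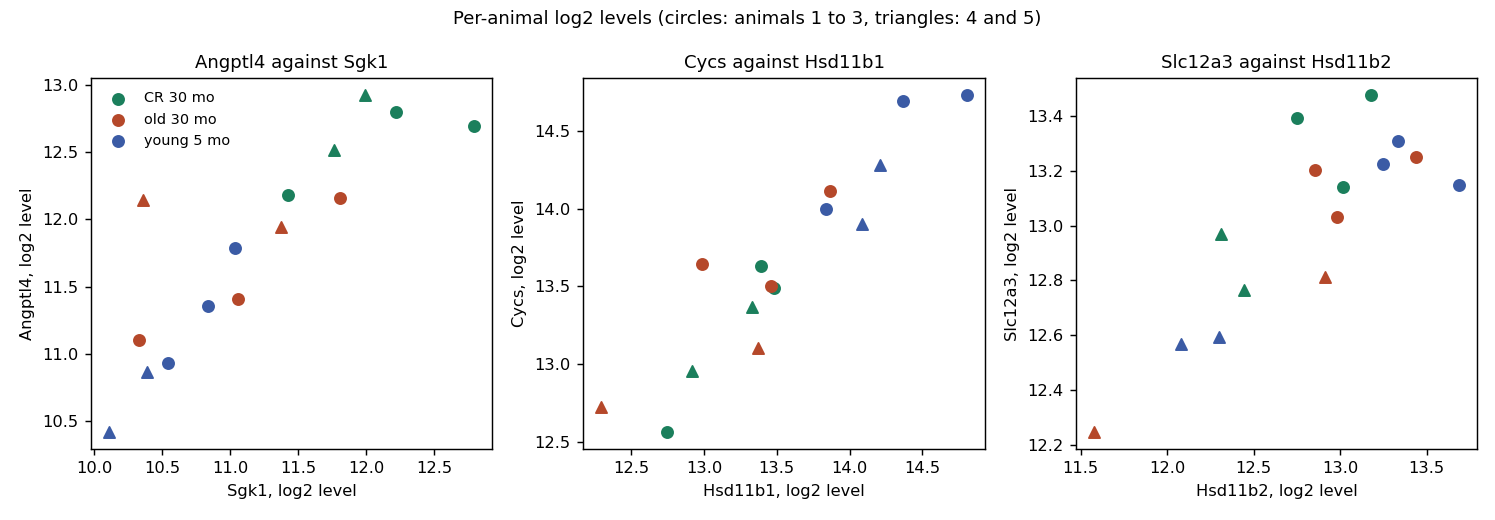
Log2 level of Angptl4 against Sgk1, Cycs against Hsd11b1 and Slc12a3 against Hsd11b2 in each of the 15 animals (circles: numbers 1 to 3, triangles: numbers 4 and 5). Calorie-restricted (CR) animals are highest for Sgk1 and Angptl4 and young controls for Hsd11b1 and Cycs, while Hsd11b2 and Slc12a3 are on average lower in animals 4 and 5 than in animals 1 to 3 of each group.

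For Hsd11b2 the closest over deviations were the splicing factors Sf1 (0.91) and Scaf11 (0.91) and the distal tubule cotransporter Slc12a3 (0.89), and with group and number set means removed these were 0.69, 0.87 and 0.63. Over levels they were Scaf11, Sf1 (0.84 each) and Hoxc9 (0.83). For Fdx1 they were Chchd7, a mitochondrial protein (0.91), Sar1b, a coat protein GTPase of secretion (0.90), and the fatty acid oxidation enzyme Acadm (0.90) over levels, and Eef1b2, Chchd7 and Sem1 (0.91, 0.90 and 0.90) over deviations. For the array A probe set of Nr5a1 they were Gstm5 (0.79), the cholesterol exporter Abca1 (0.76) and Aff1 (0.72) over levels, and Slc46a1, Timd2 and Gstm5 (0.79, 0.78 and 0.77) over deviations. For Hsd3b1, whose values mostly sat at the floor, Xrcc1, Map3k5 and A630034I12Rik gave 0.84, 0.81 and 0.80 over levels, and Lgals9 joined Xrcc1 and Map3k5 over deviations.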

How the data were processed

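Kidney RNA of 15 animals in 3 groups of 5 was measured on 2 array types. The authors deposited 1 table per array type with whole-number intensity values per probe set, some of them negative. Which software, background step and scaling made the deposited intensities is not given in the sources used here, and the trimmed mean of an array was 1474 to 1504, so the arrays had been scaled before deposit. Arrays of a table were brought to 1 trimmed mean (2% off either end, factors 0.997 to 1.01), values below the floor were set to it, and log2 was taken, which understates changes of dim genes. Probe sets above the floor on at least 5 arrays were tested, 2609 and 1909. Left out were 122 control probe sets and 16 further rows blank on some arrays. Array annotation gave 7561 probe sets 1 symbol, 224 several and 5394 none, and 7544 symbols were updated by gene number with RefSeq (GRCm38.p6).

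The 2 arrays of an animal were joined by group and number after this, and the 3 groups were fitted together with limma 3.58.1 (R 4.3.3); p-values were adjusted over both tables by Benjamini-Hochberg. A gene of a list is represented by its brightest tested probe set. The 6 genes, the lists and the tests were chosen with earlier results of these data known. Named were all probe sets of the 6 genes, list genes that passed with age or with the diet, up to 4 more per list by brightness, and the 3 closest genes per member; other list genes were named after their values were seen. Fits were tested on simulated data. Title numbers were not taken to pair the animals: same-numbered animals of different groups deviated together at r above 0.1 in 13 of 15 pairs, with a lowest r of -0.01, and 2 of 15 animals matched their own number best. The number of arrays limits the precision. Tried as alternatives were quantile normalization, the deposited scale, a lower and a higher floor, asinh in place of log2, stricter and no filters, eBayes with trend and robust, fits of 2 groups or 1 table, a replicate block, the number set as a term or alone, each animal left out, and array B without the 85 probe sets whose young columns went against the old. Correlations between members used 100000 permutations (scipy 1.17.1), and figures were drawn with matplotlib 3.10.9.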

Additional observations from a re-analysis of the deposited data

Results flagged for a closer look

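In 81 groups of 5 values, those of the 6 genes and of the named list genes that passed a test, the gap of the highest or lowest animal to its neighbour was set against the range of its group (Dixon's test), and 2 groups held an animal far from the others. Chance flags about 1 in 20 groups. Gatm, which makes the precursor of creatine, read 3034 in the highest calorie-restricted animal. Jchain, which joins immunoglobulin chains, read 9828 in the highest old control. None of the groups of Hsd11b1, Hsd11b2, Hsd3b1, Fdx1, Nr5a1 or Sgk1 held such an animal.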

How the results depend on the processing

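Over 30 alternatives the age difference of Hsd11b1 stayed below 0, and those of Fdx1 (age) and Sgk1 (calorie-restricted against old and against young) kept their direction. Hsd11b1 with age, -1.07, was not called without a filter on low values (-1.07), with only the groups compared in the fit (-1.07), in numbers 1 to 3 alone (-0.90) or in numbers 4 and 5 alone (-1.32), and it ranged over -1.24 to -0.84 when each animal was left out. Fdx1 with age, -0.89, was not called in numbers 1 to 3 alone (-0.97) or numbers 4 and 5 alone (-0.78), where fewer animals enter, and ranged over -0.98 to -0.77. Calorie-restricted against young animals, Hsd11b1 (-1.09) was not called without a filter (-1.09). Sgk1 against old controls, 1.05, was called with the number set as a term (1.05) and ranged over 0.86 to 1.26. Sgk1 against young controls, 1.46, was not called without a filter (1.46), in numbers 1 to 3 alone (1.34) or in numbers 4 and 5 alone (1.63), and ranged over 1.27 to 1.61. Some settings entered fewer animals or more probe sets, and why calls differed between settings was not tested.

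The counts of called probe sets were 233 with age, 118 with the diet and 258 for calorie-restricted against young animals. With age they were 155 without a filter, 151 in numbers 1 to 3, 119 in numbers 4 and 5 and 150 without the 85 probe sets of array B whose young columns went against the old. With the diet they were 47 without a filter, 50 with at least 10 arrays above the floor, 224 with the number set as a term, 253 in numbers 1 to 3, 5 in numbers 4 and 5 and 70 with only the groups compared. Against young animals they were 162 without a filter, 439 with the number set as a term, 97 in numbers 4 and 5 and 169 without those of array B. Leaving out 1 animal gave 179 to 254, 73 to 133 and 195 to 266. With the replicate block, for numbers that do not pair the animals, the counts were 277, 170 and 325, and the differences of Hsd11b1, Fdx1 and Sgk1 remained called or not called as without it. Of the named list genes, Fkbp5 (-0.60, adjusted p = 0.0461) and Klk1 (0.70, adjusted p = 0.0274) with the diet and Mep1b with age (-0.67, adjusted p = 0.00877) were called with the block in limma, and Egf with age (-0.39, adjusted p = 0.0557) was not. Klk1 with the diet was also called with quantile normalization (0.68). Cyp7b1 with age was not called without a filter or with only the groups compared (-0.97 in both cases).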
